A study of Homo sapiens with 6 samples.

Results

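The genes for the inducible subunits of the immunoproteasome (PSMB8, PSMB9 and PSMB10) and for both subunits of the proteasome activator PA28 (PSME1 and PSME2) were described in human neural stem cells. They were found by symbol, and all 5 were among the 26485 gene symbols counted. RNA was sequenced from AF22, an established human neural stem cell line of neuroepithelial type that was made from induced pluripotent stem cells. Control cells (3 libraries, genotype labelled WT) carried a control short hairpin RNA, shControl, and the other cells (3 libraries) had the genotype label COMMD3/COMMD3-BMI1 knockdown. COMMD3 encodes a subunit of an endosomal sorting complex, and COMMD3-BMI1 is a readthrough transcript of COMMD3 and its neighbour BMI1. The labels give one line and neither the knockdown reagent nor whether replicates were separate cultures, so p-values cover only the spread from library to library, and that spread may be technical. RNA of whole cultures was measured, so more cells with a transcript and more transcript per cell cannot be told apart.

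The proteasome is a barrel-shaped protease that cuts proteins into peptides, and its core holds 3 kinds of catalytic subunit, β1, β2 and β5, encoded by PSMB6, PSMB7 and PSMB5. In immune cells, and in many other cells exposed to interferon, newly assembled cores take up β1i (PSMB9), β2i (PSMB10) and β5i (PSMB8) in their place. These immunoproteasomes make more of the peptides that fit major histocompatibility complex (MHC) class I molecules. PA28, a ring of PSME1 (α) and PSME2 (β) subunits, caps the core and opens its gate, and its genes are also interferon-inducible. PSMB8 and PSMB9 lie in the class II region of the MHC, beside TAP1 and TAP2, whose products pump the peptides into the endoplasmic reticulum.

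All 5 members have an entry in the RefSeq table of promoters (GRCh38.p14; 250 bases before to 50 after the gene's start), which was searched on both strands for 3 motifs. The letters GAAANNGAAA, the core of the interferon-stimulated response element (ISRE) bound by transcription factors of the IRF family, were in 3 of the 5 windows and in 3.65% of 27305 promoters of the same length. The letters TTCNNNGAA, the site of STAT dimers, were in none of the 5 and in 7.88% of promoters. The letters GGGCGG of the SP1 site, which overlap neither of the others, were in 4 of the 5 and in 44.6% of promoters. The stretches below are the 3 members with the ISRE letters, and TAP1 because PSMB9 shares an upstream region with it. Each reads 5′ to 3′ on the gene's strand, and capitals mark the ISRE letters on either strand.

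PSMB10, chr16:67936831-67936930, minus strand: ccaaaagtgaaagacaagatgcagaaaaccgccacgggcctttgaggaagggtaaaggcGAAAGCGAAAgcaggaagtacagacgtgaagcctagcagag
PSME1, chr14:24136114-24136213, plus strand: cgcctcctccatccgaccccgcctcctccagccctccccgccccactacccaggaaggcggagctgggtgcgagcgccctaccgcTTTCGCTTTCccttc
PSME2, chr14:24146591-24146690, minus strand: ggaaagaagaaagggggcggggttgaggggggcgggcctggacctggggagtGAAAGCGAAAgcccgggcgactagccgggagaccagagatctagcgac
TAP1, chr6:32853765-32853864, minus strand: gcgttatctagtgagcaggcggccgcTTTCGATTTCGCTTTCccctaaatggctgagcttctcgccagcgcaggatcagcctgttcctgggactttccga

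In PSMB10 and PSME2 the letters GAAAGCGAAA lay from 21 to 12 and from 28 to 19 bases before the start. In PSME1 the same 10 letters stood on the other strand, from 5 to 14 bases after the first base. The windows of PSMB8 and PSMB9 held neither the ISRE nor the STAT letters. By their RefSeq starts, TAP1 and PSMB9 are read away from each other from points 488 bases apart, and TAP1's pair of overlapping ISRE matches lay between 354 and 369 bases before the PSMB9 start, outside the PSMB9 window. Of the lists used below, the ISRE letters were in 11 of 12 promoters of interferon-response reference genes, 5 of 12 of peptide supply genes, 2 of 5 of class I chains, 2 of 11 of other core subunits, 1 of 6 of assembly factors, 1 of 15 of regulators and 0 of 23 of the 19S regulatory particle. The ISRE letters were also in 4 of 9 promoters of interferon genes and 0 of 3 of the other activators and inhibitor. Among the constitutive catalytic subunits they were in 0 of 1, because PSMB6 and PSMB7 had no promoter entry. A match is a description of letters and not of a bound site.

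Libraries held between 7294687 and 11579849 counts, and 13632 genes had enough counts to be tested. COMMD3 stood at 31.7, 29.7 and 27.6 in counts-per-million units (CPM) in the control libraries and at 12.9, 11.3 and 10.5 CPM in the knockdown libraries, and fell by 1.37 on the log2 scale (SE 0.0996; edgeR quasi-likelihood test, adjusted p = 2.34e-12). BMI1 did not pass the test (adjusted p = 0.206), and the symbol COMMD3-BMI1 was listed at 0 in all 6 libraries. All exon bases of COMMD3-BMI1 are shared on the same strand with COMMD3 or BMI1, and how shared reads were assigned is not given. The 0 therefore does not show whether the readthrough was expressed or knocked down, and counts of COMMD3 and BMI1 may hold its reads. Markers of neural stem cells summed to between 2801 and 2977 CPM in control and between 2820 and 2921 CPM in knockdown libraries, with 9 of 10 detected well enough for the test and HES5 at 0. In that list SOX2 (means 287.9 and 259.9 CPM) and NOTCH1 (160.5 and 118.4 CPM) were called lower and MSI1 (138.7 and 152.4 CPM) higher, and NES and VIM, which make up most of the sum, did not pass. Markers of leukocytes, which use the immunoproteasome without added interferon, summed to between 4.20 and 6.17 CPM in control and between 4.92 and 5.25 CPM in knockdown libraries. CD3E, CD3D, CD2 and MS4A1 of that list of 14 were at 0 in every library. Endothelial markers (6 listed) summed to between 137.4 and 144.9 CPM in control and 93.1 and 105.2 CPM in knockdown libraries, and astrocyte and oligodendrocyte markers (10 listed) to between 260.4 and 267.8 CPM and between 210.8 and 213.0 CPM, with GFAP and SOX10 at 0. Markers of pluripotent cells (5 listed) summed to between 531.3 and 535.5 CPM in control and between 635.1 and 693.2 CPM in knockdown libraries. LIN28A (303.6 and 456.8 CPM) was the list's only higher gene in the edgeR test, while POU5F1 was lower (59.1 and 45.7 CPM), DPPA4 did not pass (171.3 and 169.9 CPM), NANOG was too low to be tested and TDGF1 was at 0. Neuronal markers (8 listed) summed to between 720.1 and 768.4 CPM and between 686.4 and 714.7 CPM, with STMN2 at 0, and mesenchymal markers (6 listed) to between 912.0 and 960.6 CPM and between 916.9 and 947.4 CPM, with PDGFRB (76.6 and 43.2 CPM) and LUM (33.9 and 29.7 CPM) called lower and COL1A1 (63.8 and 76.0 CPM) higher. The part of these shifts in the results was not tested.

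All 5 members rose in the knockdown cells, by very different amounts. PSMB9 went from a single count in the control libraries to 62 counts in the knockdown libraries, PSMB8 rose 5.88-fold, and PSME2, PSME1 and PSMB10 rose 1.40-fold, 1.38-fold and 1.25-fold. In all 5 genes the lowest knockdown library stood above the highest control library. Calls were common in this comparison: 33.3% of tested genes passed an adjusted p under 0.05, 15.3% as higher and 18.1% as lower, and 21.6% had all knockdown libraries above all control libraries. PSMB9 passed the filter on low counts only through its knockdown libraries, so, once tested, it had to differ, and the counts over the members are a description. The median log2 fold change was 0.48 over the other 4 members and 0.0015 over all tested genes.

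The inducible subunit of the β5 position, which cuts after hydrophobic residues, was PSMB8 (ENSG00000204264; chr6:32840717-32844703, minus strand, GRCh38). PSMB8 had 29, 22 and 14 counts in the 3 control libraries, or 2.50, 2.51 and 1.96 CPM. The knockdown replicates had 134, 99 and 157 counts, or 14.0, 11.5 and 16.2 CPM. The groups lay far apart, and within the knockdown group replicate 3 was highest and replicate 2 lowest. The mean went from 2.33 ± 0.316 to 13.9 ± 2.32 CPM (SD, n = 3 each), and the log2 fold change was 2.56 (SE 0.178, edgeR adjusted p = 8.24e-13). Of the exon bases of PSMB8, 20.6% are shared with genes on the opposite strand, mostly with the antisense gene PSMB8-AS1. Whether the counting used strand is not given in the sources used here, so reads of these genes may not have been told apart. PSMB8-AS1 itself had 1 count in all of control and 16 in all of knockdown, against 65 and 390 for PSMB8, and was too low to be tested.

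PSMB9 (ENSG00000240065; chr6:32844136-32859585, plus strand) is the β1i subunit, which replaces the subunit that cuts after acidic residues. The control libraries held 1, 0 and 0 counts of it, replicate 1 first, and the knockdown libraries 16, 14 and 32. In CPM these are 0.0863, 0 and 0, against 1.68, 1.63 and 3.29. A library count of 0 allows up to 0.343 CPM in control replicate 2 and 0.420 CPM in replicate 3, taking 3 counts as the floor. The transcript was thus at the edge of detection in control cells, and in knockdown cells it was present but the lowest of the 5 members, with replicate 3 at about the sum of the other two. The means were 0.0288 ± 0.0498 and 2.20 ± 0.947 CPM (SD, n = 3 each), and the fitted log2 fold change was 5.49 (SE 0.679, edgeR adjusted p = 1.83e-07). The ratio of scaled counts was 61.1, with an exact 95% interval of 10.6 to 2453 that covers counting error only. One control library decides that figure: without control replicate 1 the control group holds no count, and the fitted log2 fold change is 7.29. Setting that group at the floor of 3 counts gives a ratio of scaled counts of 11.8. This ratio leaves out the counting error of the knockdown libraries, so it is not a lower limit. The fitted size rests on very few control counts and depends on the prior count used. Because PSMB9 passed the filter on low counts only through its knockdown libraries, its adjusted p is a description.

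PSMB10 (ENSG00000205220; chr16:67934502-67937087, minus strand) is the β2i subunit, which replaces the subunit that cuts after basic residues. It had 154, 124 and 98 counts in the control and 160, 159 and 157 in the knockdown replicates. The levels were 13.3, 14.2 and 13.7 CPM in control and 16.8, 18.5 and 16.2 CPM in knockdown libraries. The groups did not overlap, but the gap between them was small. The mean went from 13.73 ± 0.437 to 17.14 ± 1.22 CPM (SD, n = 3 each), and the log2 fold change was 0.32 (SE 0.105, edgeR adjusted p = 0.0192). This call was the least stable of the 5. It was lost with DESeq2 (adjusted p = 0.0935), without control replicate 1 (edgeR, 0.29 on the log2 scale, adjusted p = 0.0773) and without knockdown replicate 2 (edgeR, 0.26, adjusted p = 0.1). A readthrough gene of the annotation shares 34.8% of the PSMB10 exon bases on the same strand, and its symbol is not among those counted.

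PSME1 (ENSG00000092010; chr14:24136158-24138967, plus strand) encodes the α subunit of PA28. It had 49.99, 57.0 and 57.0 CPM in the control and 77.7, 77.6 and 69.1 CPM in the knockdown libraries. The lowest knockdown library exceeded the highest control library by more than either group's SD. The mean went from 54.68 ± 4.06 to 74.82 ± 4.93 CPM (SD, n = 3 each), a rise by 0.46 on the log2 scale (SE 0.0606, edgeR adjusted p = 4.93e-07). Its partner PSME2 (ENSG00000100911; chr14:24143362-24147570, minus strand), the β subunit, had 52.8, 52.1 and 52.4 CPM in the control and 74.6, 71.2 and 74.8 CPM in the knockdown libraries. PSME2 had the tightest replicates of the 5, at 52.42 ± 0.321 and 73.52 ± 1.99 CPM (SD, n = 3 each), and rose by 0.49 on the log2 scale (SE 0.0531, edgeR adjusted p = 1.51e-08). PSME2 has near-copies elsewhere in the genome, PSME2P2 on chromosome 13 and PSME2P6 on chromosome 10, whose symbols are not among those counted, so reads shared with them are uncertain.

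**Figure D1:**
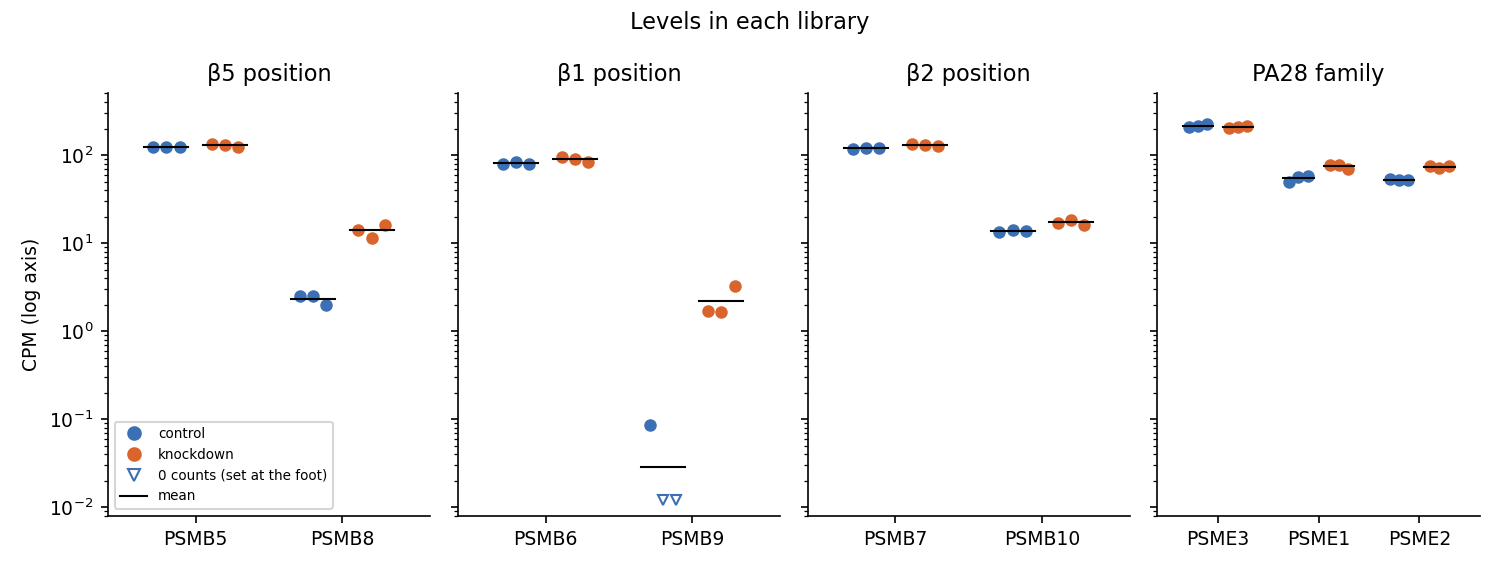
CPM on a log axis for each inducible gene beside its constitutive counterpart, 1 point per library, with bars at the group means and open triangles for libraries with 0 counts. PSMB8 went from 1.96 to 2.51 CPM in control to 11.5 to 16.2 CPM in knockdown libraries, while PSMB5, PSMB6 and PSMB7 lay between 78.9 and 133.2 CPM in all 6 libraries.

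Levels were compared between genes as CPM per kilobase of exon (RPKM). In control cells PSME1 stood at 30.7 ± 2.28, PSME2 at 14.6 ± 0.0895, PSMB10 at 7.41 ± 0.235, PSMB8 at 0.776 ± 0.105 and PSMB9 at 0.00937 ± 0.0162 RPKM (SD, n = 3). In knockdown cells the order was the same, with PSME1 at 42.0 ± 2.77, PSME2 at 20.5 ± 0.555, PSMB10 at 9.25 ± 0.662, PSMB8 at 4.64 ± 0.773 and PSMB9 at 0.716 ± 0.308 RPKM. Neighbours in that order lay further apart than their SDs in each group. The first place is set by the length used: per kilobase of coding sequence PSME1 and PSME2 were both at 65.7 in control cells, and at 89.9 and 92.1 in knockdown cells. The PSME1 to PSME2 ratio by exon length was 2.10 ± 0.167 in control and 2.05 ± 0.171 in knockdown libraries (exact 2-sided permutation test, p = 0.6). A shift in the proportion of the PA28 subunits was not detected, and 3 libraries a group allow no p under 0.1.

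The constitutive catalytic subunits, which the inducible ones replace, moved little. PSMB5 was at 123.4 ± 1.27 CPM in control and 129.5 ± 4.23 CPM in knockdown libraries and did not pass the edgeR test (adjusted p = 0.243), although its groups did not overlap. PSMB6 went from 81.05 ± 2.89 to 89.98 ± 6.21 CPM (log2 fold change 0.15, edgeR adjusted p = 0.027), with overlapping groups, and PSMB7 from 119.3 ± 1.71 to 129.2 ± 3.45 CPM (0.12, edgeR adjusted p = 0.04; SD, n = 3 each). Both of these calls were fragile. PSMB6 lost its call with DESeq2 (adjusted p = 0.114) and without control replicates 1 or 3 or knockdown replicates 1 or 2 (edgeR adjusted p = 0.0875, 0.082, 0.173 and 0.0863). PSMB7 lost its call with DESeq2 (adjusted p = 0.136), with no filter on low counts (edgeR adjusted p = 0.0604) and without control replicates 1 or 2 or knockdown replicates 1 or 2 (edgeR adjusted p = 0.123, 0.0755, 0.14 and 0.109).

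The share of each catalytic position taken by the inducible transcript was computed per library from reads per kilobase of exon. PSMB8 made up 1.17%, 1.199% and 0.927% of PSMB8 plus PSMB5 in the control libraries, and 5.84%, 4.95% and 7.08% in the knockdown libraries. The means were 1.10% ± 0.149 and 5.96% ± 1.07 (SD, n = 3), so most transcripts of the pair remained PSMB5. PSMB9 made up 0.0509%, 0% and 0% of PSMB9 plus PSMB6 in control and 0.819%, 0.837% and 1.83% in knockdown libraries, with means of 0.0170% ± 0.0294 and 1.16% ± 0.578. PSMB10 already held 9.99% ± 0.225 of its pair with PSMB7 in control cells and 11.3% ± 0.667 in knockdown cells. In each pair every knockdown library lay above every control library. By CPM, the same held for 21.6% of all tested genes. The exact 2-sided permutation test gave p = 0.1 for each, the smallest that 3 against 3 libraries allow, and 0.1 after adjustment over the 3 pairs. PSMB9 passed the filter on low counts only through its knockdown libraries. The separation and p of its pair are therefore a description. With coding length in place of exon length the means went from 1.75% to 9.21%, from 0.0403% to 2.71% and from 11.5% to 13.0%. The position with the highest inducible share in control cells, β2, was thus the one whose inducible gene had the smallest fold change.

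**Figure D2:**
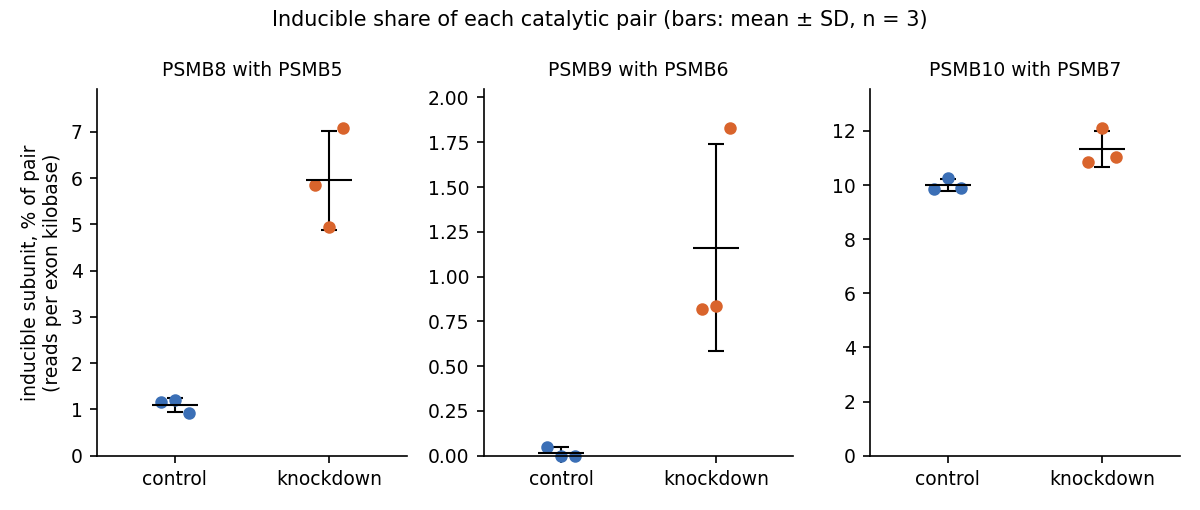
Inducible subunit as a percent of its pair with the constitutive counterpart, from reads per kilobase of exon, 1 point per library, bars giving mean ± SD (n = 3); the vertical scales differ. Knockdown libraries lay at 4.95% to 7.08% for PSMB8, 0.819% to 1.83% for PSMB9 and 10.9% to 12.1% for PSMB10, above the control libraries in each pair.

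The rest of the proteasome showed small changes. Of the 37 tested constitutive genes listed for the 20S core and the 19S regulatory particle, 6 were higher and 1 lower, while 30 did not pass the edgeR test. Over all tested genes, 15.3% were higher and 18.1% lower. The median log2 fold change of the 37 was 0.02 and the range −0.28 to 0.17, with PSMD10, an assembly chaperone and not a subunit, at the low end. The smallest rise among the members, 0.32 for PSMB10, lay above that range, although differences between single genes were not tested. In the core, PSMA5, an α-ring subunit, rose by 0.17 on the log2 scale (edgeR adjusted p = 0.00545). PSMA6 and PSMB1, structural subunits of the α and β rings, were called at 0.16 (edgeR adjusted p = 0.0073) and 0.14 (edgeR adjusted p = 0.0175). In the 19S particle PSMD4, a ubiquitin receptor, was called higher by 0.13 (edgeR adjusted p = 0.0264), and PSMD10, a chaperone of its assembly, fell by 0.28 (edgeR adjusted p = 9.64e-05). Some of these calls came and went with single libraries. PSMA6 was lost without knockdown replicate 1 (edgeR adjusted p = 0.0699). PSMB1 was lost without control replicate 2 or knockdown replicates 1 or 2 (edgeR adjusted p = 0.119, 0.0578 and 0.079). PSMD4 was lost without control replicates 2 or 3 or knockdown replicates 1 or 2 (edgeR adjusted p = 0.111, 0.0645, 0.0581 and 0.114). PSMA5 and PSMD10 kept their calls whichever single library was left out.

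The other activators of the core did not pass the test. PSME3, the subunit of the nuclear PA28γ ring, was at 215.9 ± 11.3 CPM in control and 209.7 ± 4.62 CPM in knockdown libraries (SD, n = 3; edgeR adjusted p = 0.549). PSME4, the single-chain activator PA200, was at 268.7 ± 7.80 and 252.2 ± 8.88 CPM (edgeR adjusted p = 0.114). The inhibitor PSMF1 was called higher by 0.16 on the log2 scale (edgeR adjusted p = 0.0153) with overlapping groups, and lost the call without control replicate 1 (0.09, edgeR adjusted p = 0.187). POMP, the assembly factor that helps inducible cores to form, went from 91.96 ± 3.99 to 103.2 ± 3.11 CPM (0.16, edgeR adjusted p = 0.00842) and lost its call without control replicate 2 (edgeR adjusted p = 0.0615). The other 6 tested assembly factors did not pass.

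Many genes that work downstream of the immunoproteasome in antigen presentation also rose. Of 12 tested genes that trim, carry or load peptides for MHC class I, 7 were higher and 1 lower, 4 did not pass, and the median log2 fold change was 0.25. Among all tested genes 15.3% were higher and 18.1% lower. TAP1, a chain of the peptide pump, had 1.73, 2.29 and 1.40 CPM in control and 27.9, 23.6 and 35.3 CPM in knockdown libraries (log2 fold change 3.99, SE 0.182, edgeR adjusted p = 1.32e-17). Its partner TAP2 went from 9.28 ± 2.60 to 50.2 ± 4.90 CPM (2.43, edgeR adjusted p = 1.13e-17; SD, n = 3 each). The peptidases LAP3, of the cytosol, and ERAP2, of the endoplasmic reticulum, rose by 0.83 and 1.45 on the log2 scale (edgeR adjusted p = 6.50e-15 and 6.54e-10). TPP2, a large cytosolic peptidase and the list's lower gene, fell by 0.32 (edgeR adjusted p = 1.91e-06); it was named after its value was seen. All 5 tested class I chains were higher, with a median of 0.88. HLA-C and HLA-B rose by 4.10 and 3.45 on the log2 scale from 1.96 ± 0.323 and 2.61 ± 0.690 CPM (SD, n = 3 each; edgeR adjusted p = 1.31e-17 and 1.84e-16). The light chain B2M went from 136.6 ± 1.03 to 242.8 ± 10.01 CPM (0.83, edgeR adjusted p = 9.94e-16). HLA genes are near-copies of each other, so the split of reads between them is uncertain.

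Of 18 genes known to regulate the members or to carry interferon signals that passed the filter on low counts also by their control libraries, 5 were higher and 3 lower, 10 did not pass, and the median was 0.06. The shares over all tested genes were 15.3% higher and 18.1% lower. IRF9, a transcription factor that acts at the ISRE, went from 10.3 ± 0.696 to 92.3 ± 9.32 CPM (3.17, edgeR adjusted p = 1.46e-23). NLRC5, the transactivator of class I, TAP1 and PSMB9 genes, was left out of these counts because it passed the filter only through its knockdown libraries. It had 6, 4 and 3 counts in the control and 53, 38 and 80 in the knockdown libraries, a ratio of scaled counts of 13.0 (exact 95% interval 7.39 to 24.9, counting error only). IRF1, which binds the region shared by TAP1 and PSMB9, went from 4.79 ± 0.637 to 13.6 ± 1.63 CPM (1.48, edgeR adjusted p = 2.28e-09); it was named after its value was seen. STAT3 fell by 0.64 on the log2 scale (edgeR adjusted p = 4.60e-13). Of 12 tested reference genes of the interferon response, 4 (OAS1, OAS2, GBP1 and CXCL10) passed the filter only through their knockdown libraries. The other 8 were all higher in the edgeR analysis, with a median of 4.85 and a smallest change of 2.56, and MX1, an antiviral GTPase, rose by 6.58 (edgeR adjusted p = 1.43e-30). PSMB10, PSME1 and PSME2 lay below that smallest change, and PSMB8, also 2.56, was level with it. None of the 9 interferon genes looked up had enough counts to be tested. IFNB1, named after its values were seen, had 0 counts in the control and 12 in the knockdown libraries. With the control group set at 3 counts, its ratio of scaled counts was 3.94, and 2.28 without control replicate 1. These ratios leave out the counting error of the knockdown libraries, so they are not lower limits.

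**Figure D3:**
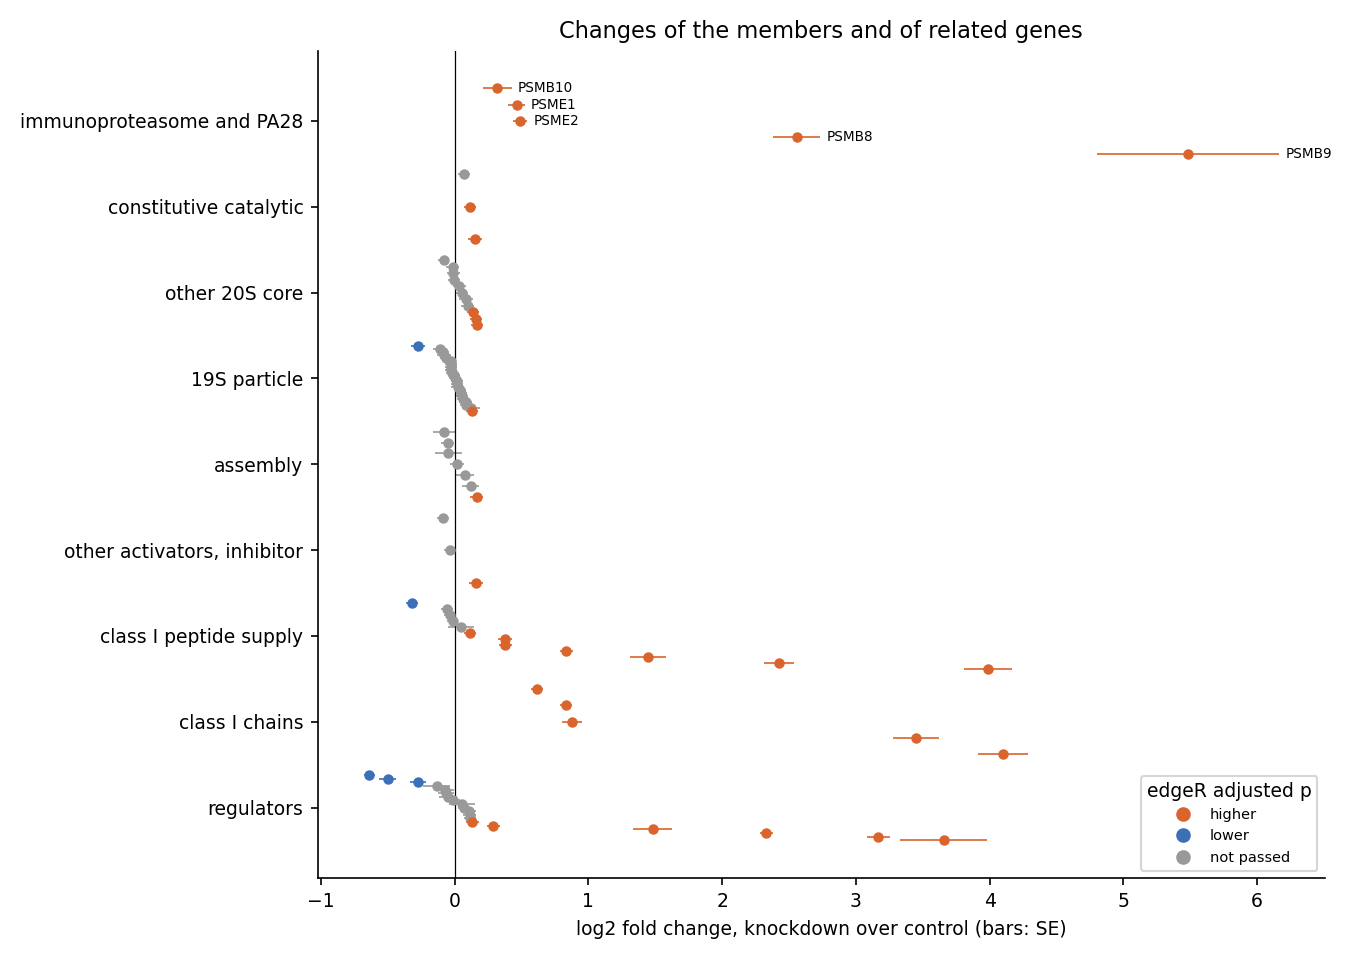
Log2 fold change of knockdown over control for every tested gene of 9 lists, 1 point per gene with its SE as a bar, coloured by the edgeR adjusted p at 0.05. The members spread from 0.32 to 5.49, and the 37 constitutive genes listed for the core and the 19S particle lie between −0.28 and 0.17.

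The members sit in 3 places in the genome, and the genes next to them were read as well (GENCODE v29, GRCh38, within 20000 bases). In the MHC, the GENCODE span of PSMB9 begins further upstream than the RefSeq start used for the promoters (base 32844136 against 32854192 of chromosome 6), so in GENCODE it overlaps the start of PSMB8 and takes in TAP1 on the other strand, whereas from the RefSeq start it overlaps neither. TAP2, on the minus strand like PSMB8, starts 1937 bases beyond the 3′ end of PSMB8. TAP2, PSMB8 and TAP1 rose by 2.43, 2.56 and 3.99 on the log2 scale. PSMB9 also rose (5.49), but it passed the filter on low counts only through its knockdown libraries. Its rise is therefore a description. Over all tested genes, 15.3% were called higher. On chromosome 14, PSME1 and PSME2 lie 4395 bases apart with EMC9 between them. EMC9, a subunit of a membrane insertion complex, rose by 0.33 (edgeR adjusted p = 0.00889), RNF31, a ubiquitin ligase subunit that overlaps PSME2 head to head, by 0.39 (edgeR adjusted p = 5.38e-07), and DCAF11, a ubiquitin ligase adaptor, by 0.25 (edgeR adjusted p = 0.000468). IRF9, described above, lies 13483 bases beyond PSME2. The call for EMC9 was lost without knockdown replicate 1 (edgeR adjusted p = 0.0701). Of the PSME2 exon bases, 6.0% are shared with opposite-strand genes, here RNF31, and 0.5% of those of PSME1.

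Near PSMB10, on chromosome 16, none of the 4 counted neighbours was called higher by edgeR. Over all tested genes 15.3% were called higher and 18.1% lower, so calls among 4 genes are only a description. Its neighbours SLC12A4, a potassium and chloride transporter, and PSKH1, a kinase, were called lower by −0.21 (edgeR adjusted p = 0.00373) and −0.12 (edgeR adjusted p = 0.0476) on the log2 scale. LCAT and CTRL did not pass the edgeR test (adjusted p = 0.52 and 0.963). SLC12A4 lost its call without control replicate 2 (edgeR adjusted p = 0.0522). PSKH1 lost its call with RLE, upper-quartile or library-size scaling (edgeR adjusted p = 0.0551, 0.0597 and 0.0852), with no filter (0.053), with DESeq2 (0.155) and without control replicates 2 or 3 or knockdown replicates 1 or 2 (edgeR adjusted p = 0.119, 0.234, 0.186 and 0.103).

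**Figure D4:**
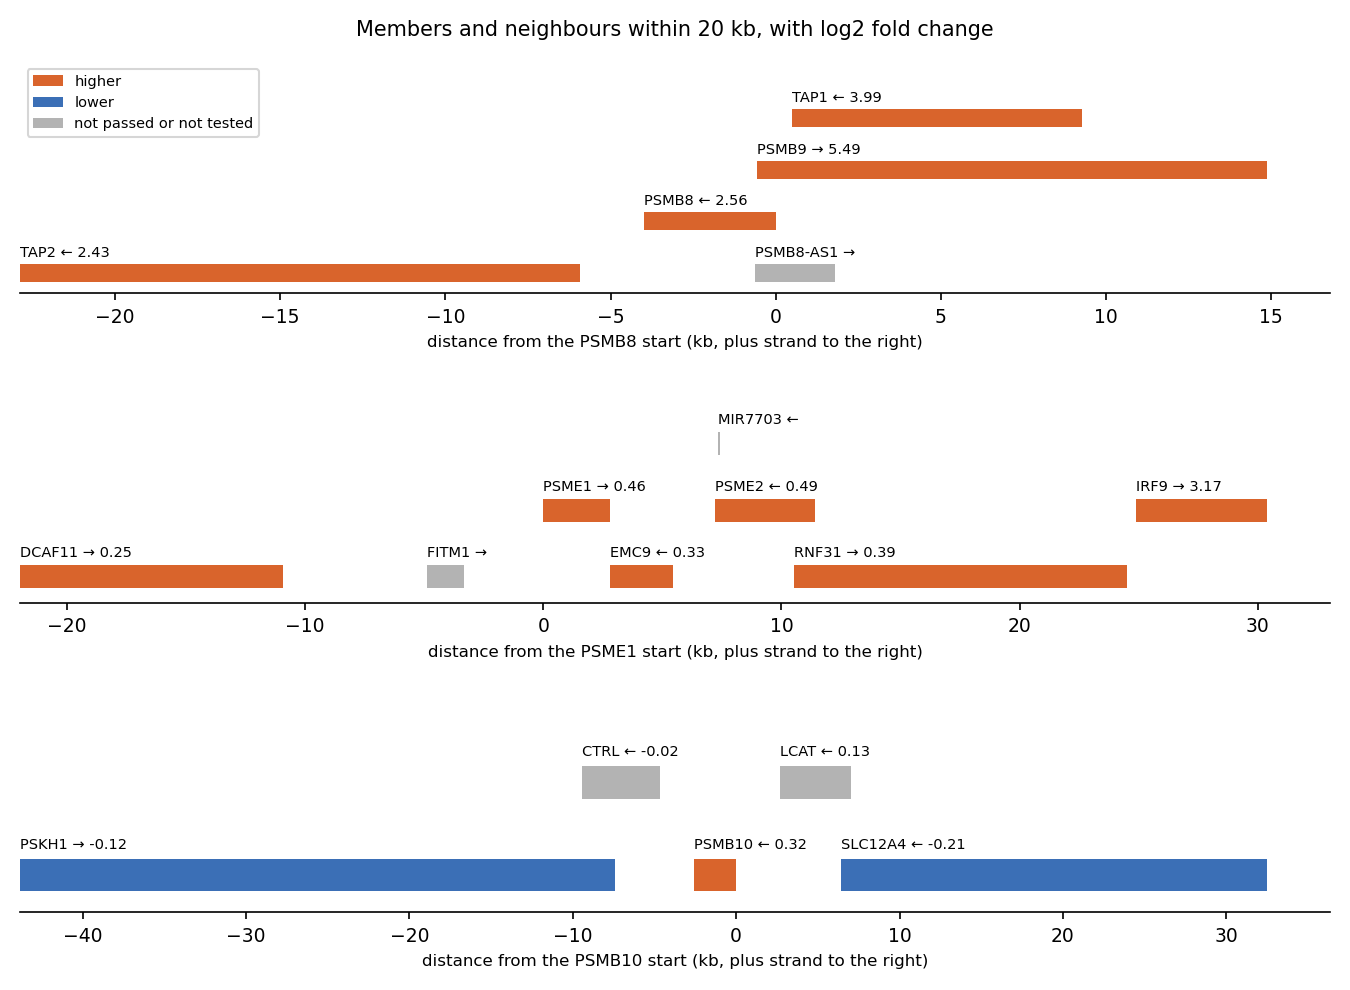
Members and neighbouring genes drawn to scale by distance in kilobases from the start of PSMB8, PSME1 and PSMB10, with arrows for strand, log2 fold changes beside the symbols and colours for the edgeR call. The PSMB8 and PSME1 intervals hold higher genes among those tested. The PSMB10 interval holds PSMB10 at 0.32 beside SLC12A4 at −0.21 and PSKH1 at −0.12. Over all tested genes, 15.3% were called higher and 18.1% lower.

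For each member the tested genes with the most similar pattern over the 6 libraries were found by the root mean square (RMS) difference of log2 CPM, centred on the control mean, among 11647 genes with a mean of 5 CPM or more. The 3 nearest to PSMB8 were SAMHD1 (RMS difference 0.0733), IRF7 (0.128) and CMPK2 (0.129), each known as interferon-inducible. SAMHD1, a nucleotide-degrading restriction factor, went from 7.94 ± 0.960 to 46.9 ± 7.34 CPM (SD, n = 3 each). PSMB9 was nearest to ANGPT2 (0.153), a vascular growth factor gene, then HLA-B (0.305) and APOL6 (0.320), and the distances to HLA-B and APOL6 were the largest found for any member. With 1, 0 and 0 control counts, the centred values of PSMB9 depend on the prior count of 2 used for log2 CPM, and so does the choice of its nearest genes, which rose by 3.06 to 3.45 on the log2 scale. Among those nearest to PSMB10 were KPNA5 (0.0316) and FAM171A2 (0.0329), and the nearest to PSME1 were PRR5 (0.0424), BCAT2 (0.055) and CLSTN3 (0.0571). PSME2 was nearest to N4BP3 (0.0355), FRZB (0.0371) and CD82 (0.0393). The log2 fold changes of these genes near PSMB10, PSME1 and PSME2 lay between 0.30 and 0.54. These distances are descriptions over 6 libraries that all the genes share, and the call for KPNA5 was lost without knockdown replicate 2 (edgeR adjusted p = 0.0591).

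The 5 members differed in how far their values moved with the choice of test and of libraries. PSMB8 stayed between 2.44 and 2.67 on the log2 scale over 16 alternative analyses and kept its call in each. PSMB9 stayed between 4.74 and 7.29 over those that gave it a value with a test, and DESeq2 gave no adjusted p for it. PSME2 stayed between 0.48 and 0.51 and PSME1 between 0.39 and 0.52, and both kept an adjusted p under 0.05 except against a 1.5-fold threshold, which their rises do not reach. PSMB10 stayed between 0.26 and 0.36. PSMB8 and PSMB9 were the members that passed the 1.5-fold threshold. PSMB9 passed the filter on low counts only through its knockdown libraries, so its calls are a description.

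**Figure D5:**
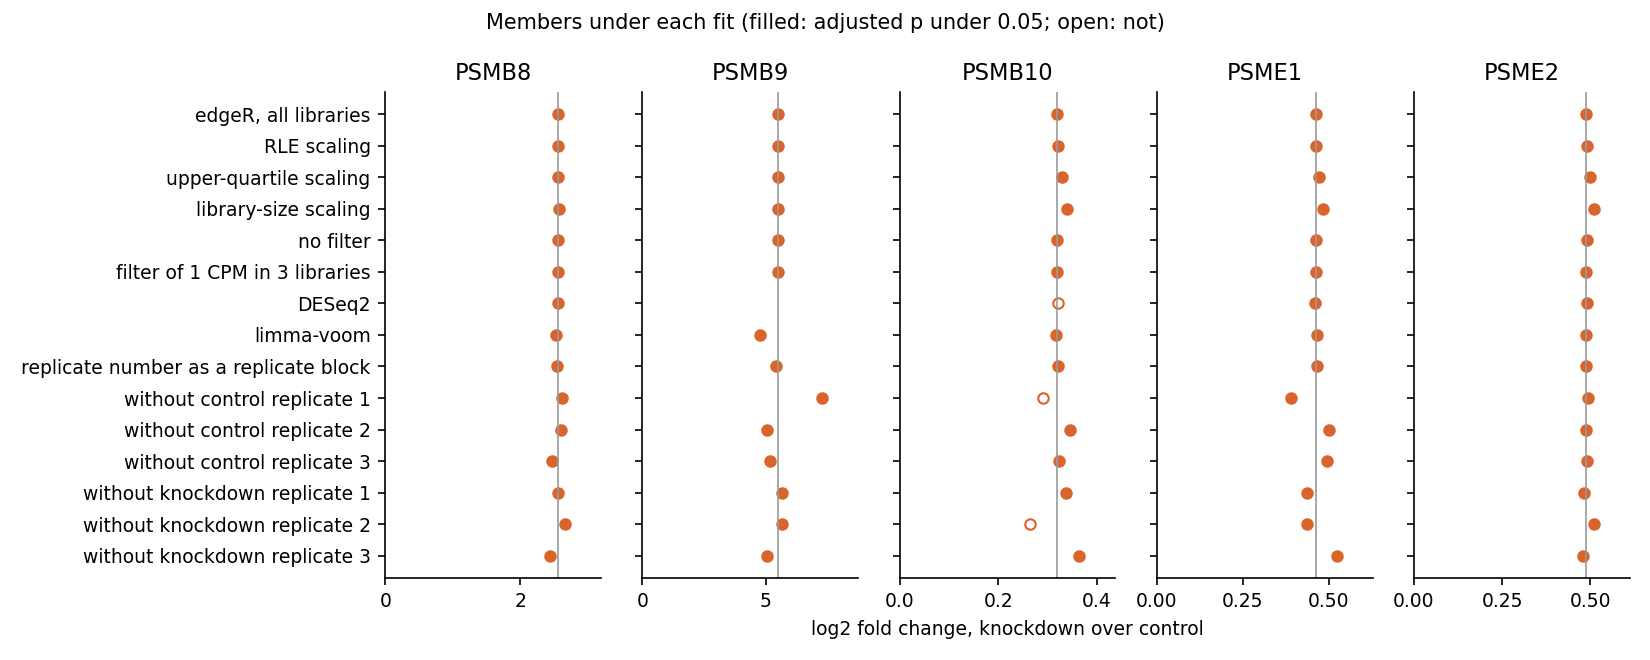
Log2 fold change of each member (horizontal axes start at 0 and differ) under the edgeR analysis of all libraries and 14 alternatives, filled where the adjusted p is under 0.05 and open where it is not. PSMB10 has 3 open points, with DESeq2, without control replicate 1 and without knockdown replicate 2, and PSMB9 has no point for DESeq2, which gave no adjusted p.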

How the data were processed

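RNA from 3 shControl and 3 COMMD3/COMMD3-BMI1 knockdown samples of AF22 was sequenced with a directional kit, per the labels' protocols. Trim Galore 0.6.6, STAR 2.7.10a, bedtools and the build hg38 appear in the submitters' processing notes. How reads were assigned to genes, with or without strand, and by which annotation is not given in the sources used here. Tables deposited by the authors hold raw whole-number counts per gene symbol. From these, genes were filtered with filterByExpr (13632 kept, holding 99.858% to 99.869% of counts), scaled by TMM and tested with edgeR 4.0.16 (R 4.3.3; glmQLFTest, no covariate), with Benjamini-Hochberg adjustment over all tested genes and a threshold of 0.05. CPM are counts scaled to TMM-adjusted library sizes, so a count of 0 allows 0.259 to 0.420 CPM (3 counts). Lengths are merged exons of GENCODE v29. Shares and ratios were tested by exact 2-sided permutation tests over 6 libraries. Intervals and floors cover counting error only, and ratios to a floor take the knockdown counts as exact.

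The members and gene lists were chosen with earlier results of these data known. The text names the members, their constitutive counterparts (PSMB5, PSMB6, PSMB7, PSME3, PSME4), COMMD3, BMI1 and COMMD3-BMI1, from each list up to 4 called genes with the smallest adjusted p-values, the 3 genes most like each member, and genes within 20000 bases, with exceptions stated; a few genes these rules give are not reported here. In the 19S list 23 of 24 genes were matched. Alternatives were scaling by RLE, by the upper quartile or by library size alone, no filter, 1 CPM in 3 libraries, DESeq2 1.42.0, limma-voom (limma 3.58.1), the replicate number as a block, each library left out, an adjusted p under 0.01 and a 1.5-fold threshold, and for shares coding length or no length. Replicates differed by more than sampling noise (chi-square per degree of freedom 1.23 to 1.994) and each counted once. Figures were drawn with Matplotlib 3.10.9 in Python 3.11.15.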

Additional observations from a re-analysis of the deposited data

How the results depend on the processing

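Counts of members in this section are a description. They include PSMB9, except with DESeq2, and PSMB9 passed the main filter only through its knockdown libraries. Against a 1.5-fold threshold, PSMB10 (0.32), PSME1 (0.46) and PSME2 (0.49, log2 fold changes) lost their calls and 2 members remained higher. The same threshold left 0 higher among the constitutive catalytic, other core, other activator, 19S and assembly genes, 0 lower in the 19S, peptide supply and regulator lists, and 4 higher in the peptide supply list. With DESeq2 3 members were higher, PSMB10 at 0.32 was not, and PSMB9 had no adjusted p; 0 constitutive catalytic subunits, 0 other activators and 0 genes of the 19S particle were higher. An adjusted p under 0.01 removed PSMB10 (0.32) and left 0 higher in those 3 lists. With no filter 1 constitutive catalytic subunit was higher, and so was 1 interferon gene, IFNB1, which the filter had kept out. Over analyses that leave out 1 library, 4 to 5 members were higher and the log2 fold change of PSMB10 was 0.26 to 0.36. Over the same analyses 0 to 2 constitutive catalytic subunits, 1 to 4 other core subunits, 0 to 1 other activators, 0 to 1 genes of the 19S particle, 0 to 1 assembly factors and 6 to 7 peptide supply genes were higher, against 2, 3, 1, 1, 1 and 7 with all libraries. The PSME1 to PSME2 difference (knockdown minus control) ranged from −0.146 to 0.0455 and changed sign without control replicate 2 and without knockdown replicate 3. PSME3 ranged from −0.0739 to 0.0037 and changed sign without control replicate 3, and CTRL ranged from −0.1734 to 0.1779 and changed sign without control replicate 3 or knockdown replicate 1, none with a call. Over 50 other named genes and 16 alternatives, 730 of 800 values kept their direction and side of the threshold and 67, in 25 genes, lost the call. Where no smaller number of libraries or genes explains a change, the cause was not tested.

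The replicate numbers are shared between the groups, but same-numbered libraries deviated together only weakly (r = 0.079, 0.005 and 0.071), so the numbers were not taken as pairs. With the replicate block the log2 fold changes were 2.54 for PSMB8, 5.40 for PSMB9, 0.32 for PSMB10, 0.47 for PSME1 and 0.49 for PSME2, and all 5 kept their calls. For PSMB9 that call is a description, as stated above. Depth limits PSMB9, with 1 control count, more than the other members.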

Other observations

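The order of the knockdown libraries was shared by many of the strongly raised genes. PSMB8, PSMB9 and PSME2 were highest in knockdown replicate 3 and lowest in replicate 2, as were TAP1, TAP2, ERAP2, HLA-B, HLA-C, HLA-E, NLRC5, IRF1 and MX1. In 2 of these genes replicates 3 and 1 were nearly level: PSME2 (74.78 and 74.55 CPM) and MX1 (259.8 and 257.6 CPM). PSME2 rose only 1.40-fold and is not one of the strongly raised genes. PSMB10 and PSME1 had other orders, with replicate 3 lowest in both, and so had IRF9, B2M and LAP3. The order with replicate 3 highest and replicate 2 lowest was found in 46 of the 71 genes called higher by 4-fold or more and in 397 of the 2084 genes called higher. These genes were measured in the same libraries, so the counts describe 3 knockdown cultures or preparations and no condition. The order was noticed after the values were seen and was not tested.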
